A study of Lytechinus variegatus with 9 samples.

Results

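The MSP130 family of the sea urchin Lytechinus variegatus was taken as every gene whose deposited description names a mesenchyme-specific cell surface glycoprotein. This rule used no measured value and found 9 genes of the 26814 in the count table. In 4 of them the published single-cell list of skeletogenic genes supplies a name: msp130 (LOC121427215), msp130rel1 (LOC121427374), msp130rel2 (LOC121427387) and msp130rel3 (LOC121427467). The other 5 are named here by their identifiers, and no skeletogenic role is assumed for them.

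RNA of whole embryos was sequenced from 3 matings, and each mating gave 1 library treated with the carrier DMSO, 1 treated with K02288 and 1 treated with axitinib, so that n = 3 libraries per treatment and 9 in all. K02288, used at 1 µM, inhibits the type I BMP receptors. Axitinib, used at 75 nM, inhibits the VEGF receptor. Both drugs were added between 18 and 20 h after fertilization, once the tri-radiate spicule rudiments had formed, and every library was made from late plutei collected at 2 days, cultured at 21 °C. No line, transgene or genotype separates the groups. Each library is a pool of embryos from 1 mating, so the replicate is the mating, and the libraries summed to between 9359212 and 11815263 counts. The lowest count of any member in any library was 22, above the 3 counts that a count of 0 would allow.

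MSP130 proteins are cell surface glycoproteins of the primary mesenchyme cells (PMCs), the migratory cells that fuse into a syncytium and secrete the calcareous skeleton of the larva. msp130 itself is a classical marker of these cells, and in other sea urchins an antibody to its protein product blocks calcium uptake by cultured PMCs. The family has several paralogs in echinoderm genomes, and genes for related proteins occur in other animals that build calcified skeletons or shells. VEGF from the ectoderm guides PMCs and maintains skeletal growth, and BMP signaling patterns the dorsal side of the embryo, where part of the syncytium lies. The comparisons below asked which of these genes differed in level between whole embryos given each inhibitor, after the spicule rudiments had formed, and those given DMSO.

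All 9 members lie on chromosome 14 of the Lvar_3.0 assembly, which carries 1072 genes of the count table, and they fall into 4 groups when a gap of 0.5 Mb or more is taken to split them. Group 2 is the most compact set of named paralogs. In it, msp130 (chr14:17199073-17220319), msp130rel1 (chr14:17233602-17264116) and msp130rel3 (chr14:17273039-17312945) stand in the same orientation on the plus strand within 113.9 kb. The gap between msp130 and msp130rel1 is 13282 bp and holds no other gene of the table. The gap between msp130rel1 and msp130rel3 is 8922 bp and holds the uncharacterized gene LOC121427492 on the opposite strand.

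Group 1 lies 7.02 Mb before group 2 and holds LOC121428213 (chr14:10108048-10118301) and LOC121427682 (chr14:10137742-10180346), both on the minus strand. LOC121427682 overlaps LOC121427683, a gene described as monocarboxylate transporter 6-like on the plus strand. The libraries were strand-specific, but whether the counting used strand is not given in the sources used here, so reads of these 2 genes may not have been told apart. Group 3 spans 356.4 kb and holds LOC121428121 (chr14:21526663-21546142), msp130rel2 (chr14:21616879-21639506, minus strand) and LOC121427689 (chr14:21871107-21883038), with 4 and 11 other genes between neighbours. Group 4 is LOC121427724 alone (chr14:26506969-26542973). How reads that match more than 1 paralog were counted is also not given, so small differences between similar members are uncertain.

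Levels were compared between genes in FPKM, which divides the counts by gene length and library size. Over the 9 libraries the mean FPKM was 139.1 for msp130, 70.4 for msp130rel2 and 19.7 for msp130rel1, the 3 most abundant members. It was 15.8 for LOC121427724, 8.30 for LOC121427682, 7.40 for msp130rel3, 7.39 for LOC121428121, 3.63 for LOC121428213 and 1.42 for LOC121427689. Within this order msp130rel2 was above msp130rel1 in 9 of 9 libraries and their ranges did not overlap. Each of the other 7 pairs of neighbours in the order had overlapping ranges over the 9 libraries, although LOC121428213 was above LOC121427689 in 9 of 9.

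The top of the order depended on the treatment. msp130 was above msp130rel2 in all 3 DMSO libraries (mean FPKM 150.0 against 80.5) and in all 3 K02288 libraries (203.9 against 61.6), with ranges apart in both. With axitinib, msp130rel2 was the higher of the pair in 2 of 3 libraries (69.1 against 63.3), and the ranges overlapped.

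**Figure D1:**
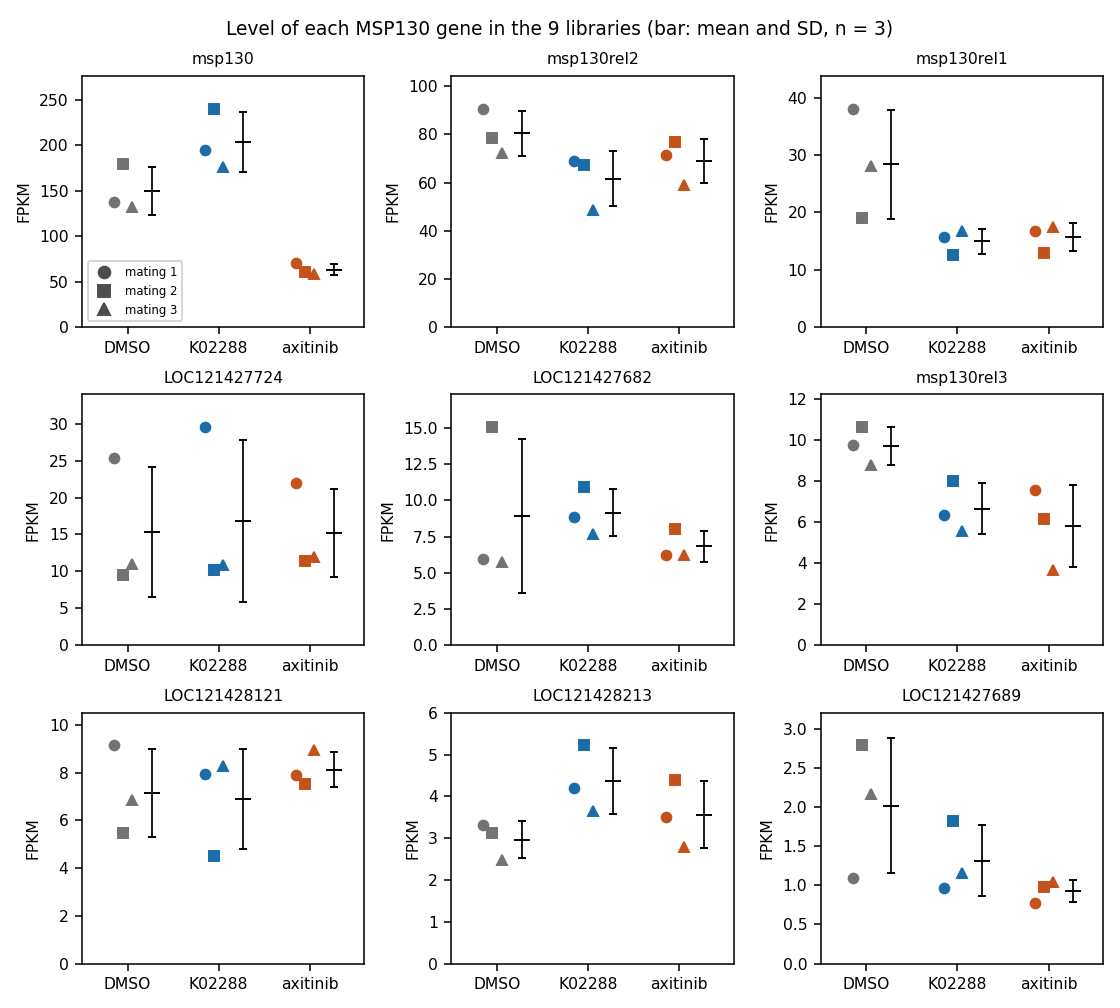
FPKM of each of the 9 MSP130 genes (vertical axis, from 0) in the DMSO, K02288 and axitinib libraries, with 1 symbol shape per mating and the mean and SD of the 3 libraries as a bar beside the points. msp130 lies between 131.9 and 179.9 with DMSO, between 176.3 and 240.4 with K02288 and between 58.9 and 70.3 with axitinib, whereas msp130rel1 is lower with both drugs than with DMSO.

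K02288 was associated with opposite differences among the paralogs. msp130, the PMC surface marker, had FPKM values of 138.3, 179.9 and 131.9 in the DMSO libraries of matings 1, 2 and 3 and of 194.9, 240.4 and 176.3 in the K02288 libraries. It was higher with K02288 in each of the 3 matings, by 0.50, 0.42 and 0.42 on the log2 scale, while the ranges overlapped because the DMSO library of mating 2 exceeded the K02288 library of mating 3. msp130rel1, the next gene along the chromosome, had FPKM values of 38.0, 18.99 and 28.0 with DMSO and of 15.6, 12.5 and 16.7 with K02288. Every K02288 library was below every DMSO library for msp130rel1. msp130rel3 had FPKM values of 9.77, 10.6 and 8.78 with DMSO and of 6.34, 8.01 and 5.59 with K02288, and again the ranges did not overlap.

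Counts were tested with edgeR's quasi-likelihood test over all genes, and a gene passed the unadjusted threshold when its p before adjustment was no larger than 0.05. With K02288, 4 of the 9 members passed, beside 2.45% of all 16288 genes tested. msp130 rose (log2 fold change 0.44, SE 0.18) and so did LOC121428213 (0.56, SE 0.24), beside 1.22% of all genes that passed as higher. msp130rel1 (-0.92, SE 0.26) and msp130rel3 (-0.55, SE 0.18) fell, beside 1.23% of all genes that passed as lower. LOC121428213 did not pass the unadjusted threshold with DESeq2, without the count filter, with a minimum of 10 counts in each library or in limma-trend fits of log2 FPKM. msp130rel3 did not pass it in the joint fit of all 9 libraries. After Benjamini-Hochberg adjustment in edgeR none of the 9 had an adjusted p under 0.05, beside 0.00614% of all genes, and DESeq2 also gave none.

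After removal of treatment means, libraries of 1 mating correlated positively across genes. Libraries of different matings and treatments correlated negatively, which follows from that removal once libraries of 1 mating correlate positively. A fit that also modelled mating gave smaller errors for these members. In that fit 4 of 9 members had an adjusted p under 0.05 with K02288, beside 2.88% of all genes. In edgeR with the mating term, msp130 was higher (0.45, SE 0.09, adjusted p = 0.00828), beside 1.83% of all genes. Against 1.05% of all genes in that direction, msp130rel1 (-0.88, SE 0.12, adjusted p = 0.000641), msp130rel3 (-0.56, SE 0.11, adjusted p = 0.00876) and msp130rel2 (-0.40, SE 0.09, adjusted p = 0.0295) were lower. LOC121428213 kept its difference of 0.56 with an adjusted p of 0.0980 in this edgeR fit. The median log2 fold change of the 9 members without the mating term was -0.05, beside 0.01 over all genes tested. This median depended on single libraries and ran from -0.44, without K02288 replicate 1, to -0.12, without K02288 replicate 2, when 1 library was left out.

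The call for msp130 with K02288 depended on single libraries when mating was left out of the fit. It passed in 2 of the 6 edgeR fits that each left out 1 library, and missed the threshold when DMSO replicate 1 (0.39) or 3 (0.37) or K02288 replicate 1 (0.48) or 2 (0.31) was left out. msp130rel3 missed it when K02288 replicate 1 (-0.52) or 3 (-0.44) or DMSO replicate 2 (-0.48) was left out, and LOC121428213 passed only without K02288 replicate 3 (0.66), with values from 0.41 to 0.64 in the other 5 fits. msp130rel1 passed in all 6, from -1.14 to -0.65. With the mating term, msp130, msp130rel1 and msp130rel3 had an adjusted p under 0.05 in 6 of 6 such fits, and msp130rel2 in 4 of 6, not without replicate 3 of DMSO (-0.30) or of K02288 (-0.31).

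msp130rel2, the second most abundant member, had FPKM values of 90.6, 78.7 and 72.2 with DMSO and of 68.9, 67.5 and 48.5 with K02288. Its ranges were apart, although it did not pass in the edgeR fit without the mating term (-0.38, SE 0.17). LOC121428213 had FPKM values of 3.32, 3.12 and 2.47 with DMSO and of 4.21, 5.22 and 3.66 with K02288. Its K02288 range lay wholly above its DMSO range, with between 83 and 192 counts in these libraries. How many of all genes had ranges apart was not counted. LOC121427689, the scarcest member, was lower with K02288 in all 3 matings with overlapping ranges and did not pass (-0.62, SE 0.45). LOC121427682, LOC121428121 and LOC121427724 had log2 fold changes between -0.05 and 0.14, and each was higher in some matings and lower in others.

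**Figure D2:**
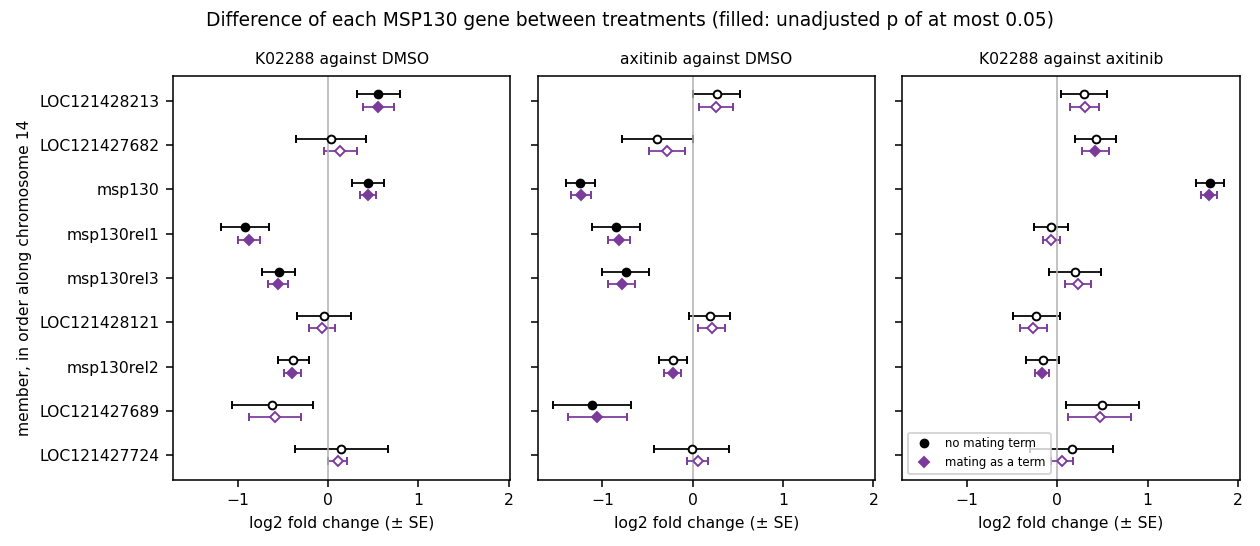
Log2 fold change with its SE (horizontal axis) of each MSP130 gene, in order along chromosome 14, for K02288 against DMSO, axitinib against DMSO and K02288 against axitinib, from the edgeR fit without a mating term (circles) and with it (diamonds). Filled symbols passed the unadjusted threshold of 0.05. msp130 lies at 0.44 with K02288 and at -1.24 with axitinib, while msp130rel1 and msp130rel3 lie below 0 with both drugs.

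With axitinib, the members that passed were all lower. msp130 had FPKM values of 70.3, 60.7 and 58.9 in the axitinib libraries of matings 1, 2 and 3, all below the lowest DMSO library. The mean of the axitinib libraries was 0.422 of the DMSO mean, and the log2 change within matings was -0.98, -1.57 and -1.16. msp130rel1 had FPKM values of 16.8, 12.8 and 17.5 with axitinib, below every DMSO library. msp130rel3 had 7.59, 6.17 and 3.68, and LOC121427689 had 0.775, 0.976 and 1.05 against 1.10, 2.79 and 2.17 with DMSO. The ranges were apart for both, and how many of all genes had ranges apart with axitinib was not counted either. The gap was narrow for LOC121427689 (1.05 against 1.10 FPKM), whose counts were the lowest of the family.

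In edgeR, 4 of the 9 members passed the unadjusted threshold with axitinib, beside 4.85% of all 16035 genes tested, and all 4 were lower, beside 3.07% of all genes in that direction. msp130 had the largest fall of the 4 (-1.24, SE 0.16, adjusted p = 0.0514, edgeR) and stood at rank 21 of 16035 genes ordered by significance. msp130rel1 fell by 0.85 (SE 0.26), msp130rel3 by 0.74 (SE 0.26) and LOC121427689 by 1.11 (SE 0.43) on the log2 scale. After adjustment none of the 9 passed in this edgeR fit, beside 0.125% of all genes. msp130 was the 1 member past the adjusted threshold in 3 other edgeR fits without mating (no filter, a minimum of 10 counts in each library, and all 9 libraries jointly) and with DESeq2 (-1.24, adjusted p = 6.39e-08).

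With mating in the fit, 3 of 9 members had an adjusted p under 0.05 in edgeR with axitinib, beside 6.22% of all genes, and all 3 were lower, beside 3.44% in that direction. These were msp130 (-1.23, SE 0.11, adjusted p = 4.07e-06), msp130rel1 (-0.81, SE 0.12, adjusted p = 0.000603) and msp130rel3 (-0.79, SE 0.15, adjusted p = 0.00346), the 3 neighbours of group 2. LOC121427689 had an adjusted p of 0.0701 in the same edgeR fit. The median of the 9 members without the mating term was -0.39, beside 0.01 over all genes tested, and ran from -0.62, without DMSO replicate 3, to -0.26, without DMSO replicate 2, when 1 library was left out.

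msp130 and msp130rel1 passed the unadjusted threshold with axitinib in each of the 6 edgeR fits that left out 1 library, from -1.32 to -1.09 and from -1.07 to -0.59. msp130rel3 missed it without DMSO replicate 1 (-0.74) or DMSO replicate 2 (-0.67). LOC121427689 passed only without DMSO replicate 1 (-1.41) and had values from -1.20 to -0.81 in the other 5. With the mating term, msp130rel3 had an adjusted p over 0.05 without replicate 3 of DMSO (-0.57) or of axitinib (-0.57).

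The other 5 members did not pass without the mating term. msp130rel2 had FPKM values of 71.6, 76.7 and 58.9 with axitinib and was below DMSO in each mating, by at most 0.34 on the log2 scale (-0.22, SE 0.15). LOC121428213 was above DMSO in each mating (0.26, SE 0.26), LOC121428121 in 2 of 3 (0.19, SE 0.22), and LOC121427682 in 2 of 3 although its fitted value was below 0 (-0.39, SE 0.39). The DMSO library of mating 2 set this last sign, since it held 15.1 FPKM of LOC121427682 against 5.97 and 5.78 in the other DMSO libraries. LOC121427724 had a value of -0.01.

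The drugs were also compared directly. msp130 was higher with K02288 than with axitinib by 1.69 on the log2 scale (SE 0.16, adjusted p = 0.01503, edgeR), and stood at rank 8 of 16197 genes ordered by significance. Its lowest K02288 library (176.3 FPKM) exceeded its highest axitinib library (70.3 FPKM). It was the 1 member of 9 past the unadjusted threshold, beside 4.99% of all genes (3.22% as higher), and the 1 member past the adjusted one, beside 0.154% (0.123% as higher). The mating term gave 1.68 (SE 0.09, adjusted p = 2.39e-08, edgeR), again the 1 member past the adjusted threshold, beside 8.16% of all genes (5.06% as higher). Leaving out 1 library gave values from 1.56 to 1.78, each past the unadjusted threshold, though only the fit without K02288 replicate 3 (1.78) also kept an adjusted p under 0.05.

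The other 8 members lay between -0.23 and 0.50 in the comparison of the 2 drugs. msp130rel1 (-0.07, SE 0.19) and msp130rel3 (0.20, SE 0.28) did not pass, and their ranges with K02288 and axitinib overlapped. With the mating term, LOC121427682 (0.42, SE 0.15, adjusted p = 0.108, edgeR) and msp130rel2 (-0.17, SE 0.08, adjusted p = 0.237, edgeR) also passed the unadjusted threshold, as did 19.6% of all genes.

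The ratio of neighbouring paralogs within a library does not depend on library size. With DMSO, the log2 ratio of msp130rel1 to msp130 in FPKM was -1.86, -3.24 and -2.24 in matings 1, 2 and 3, and with K02288 it was -3.64, -4.27 and -3.40. The mean was lower with K02288 by 1.32, and no K02288 library overlapped a DMSO library (two-sided exact permutation test p = 0.1, the smallest that 3 against 3 can give). With axitinib the ratios were -2.06, -2.24 and -1.75, and the mean difference was 0.43 (exact permutation p = 0.5). Within matings 1, 2 and 3 it was -0.20, 1.00 and 0.48. The exact permutation tests of these ratios did not pair the libraries by mating.

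For msp130rel3 the log2 ratio to msp130 was tight, between -4.08 and -3.82 with DMSO and between -4.98 and -4.91 with K02288. The mean difference was -1.01 (exact permutation p = 0.1). With axitinib the ratio was -3.21, -3.30 and -4.00, a mean difference of 0.43 (exact permutation p = 0.3), so that mating 3 did not share the shift of the other matings. In both ratios the K02288 difference had the same sign in 3 of 3 matings. That sign follows from the changes of the single genes, since msp130 was higher and the other 2 lower in every mating. Both ratios also share msp130, so they are not separate results.

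The make-up of MSP130 transcripts differed between treatments. msp130 held 43.0, 55.5 and 49.0% of the summed FPKM of the 9 genes in the DMSO libraries, 57.8, 66.6 and 63.3% in the K02288 libraries and 34.0, 32.2 and 34.7% in the axitinib libraries. The 3 ranges did not overlap. Summed over the family, CPM (counts scaled by the library total, not per length) were between 1014 and 1223 with DMSO, between 1033 and 1304 with K02288 and between 633.2 and 746.0 with axitinib. The family sum with K02288 was therefore close to that of DMSO in each mating (0.03, 0.09 and 0.03 on the log2 scale), although its parts moved in opposite directions: msp130 had between 670.6 and 887.8 CPM against 509.3 to 699.7 with DMSO, and the other 8 members together had between 362.1 and 485.1 CPM against 505.1 to 655.4.

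**Figure D3:**
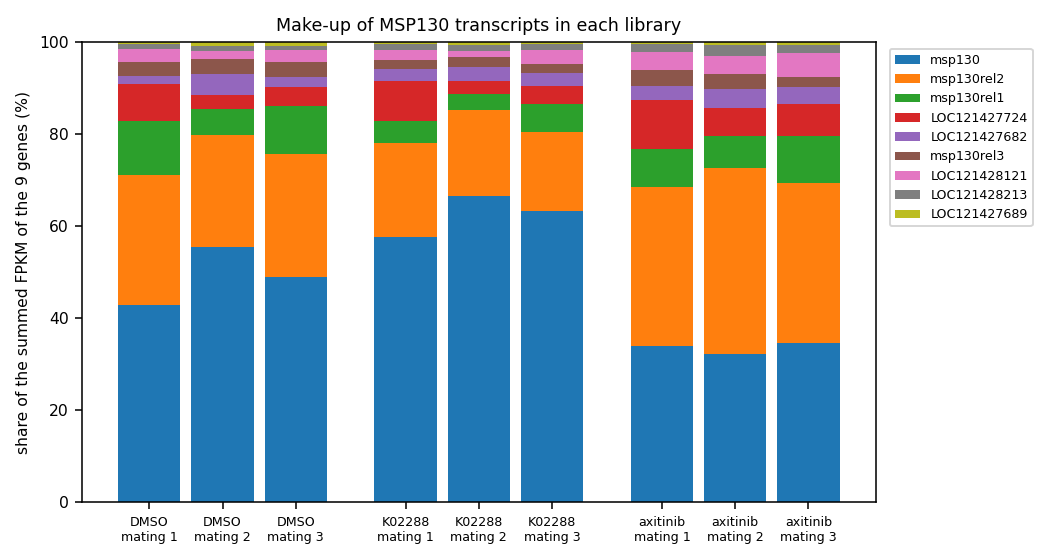
Share of each MSP130 gene in the summed FPKM of the 9 genes (stacked bars, in percent) for each of the 9 libraries. The bottom segment, msp130, is largest with K02288 (57.8 to 66.6%) and smallest with axitinib (32.2 to 34.7%), and msp130rel2 is the second segment in every bar.

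Position along chromosome 14 was set beside the response. The 25 genes that lie between or next to the members were taken as neighbours, and 17 of them had enough counts for a test with K02288 and 16 with axitinib. In group 2, msp130 differed in sign from msp130rel1 and msp130rel3 with K02288 and shared their sign with axitinib. LOC121427492, between msp130rel1 and msp130rel3, had log2 fold changes of -0.21 with K02288 and -0.02 with axitinib. LOC121427376, an enolase-like gene before msp130, had 0.04 and 0.20, and neither gene passed with either drug.

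LOC121428076, annotated as a pseudogene with a C-type lectin domain, follows msp130rel3 and was the neighbour that differed most from DMSO with K02288 among those past the threshold. Its FPKM was 26.3, 19.1 and 38.7 with DMSO, 57.5, 56.6 and 51.6 with K02288 and 25.7, 25.5 and 27.0 with axitinib. Every K02288 library was above every other library. In edgeR it rose by 0.98 with K02288, had -0.11 with axitinib and was higher with K02288 than with axitinib by 1.09 (adjusted p = 0.0417).

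In group 1, LOC121427514, a gene described as beta-lactamase domain-containing protein 2-like that ends 1.1 kb before LOC121428213, also rose with K02288 (0.54, beside 0.56 for LOC121428213). It lies on the plus strand and LOC121428213 on the minus strand, so the ends of their transcripts face each other. The mean FPKM over the 9 libraries was 51.5 for LOC121427514 and 3.63 for LOC121428213. Strand use in counting is not given, and whether reads of the neighbour entered the counts of LOC121428213 was not tested. In groups 3 and 4, LOC121427596, a neprilysin-1-like gene before LOC121427724, passed with axitinib (-0.47), whereas LOC121427724 itself did not. In all, 2 of 17 tested neighbours passed with K02288, both higher, beside 2.45% of all genes in either direction. With axitinib 1 of 16 passed, near the 4.85% of all genes.

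**Figure D4:**
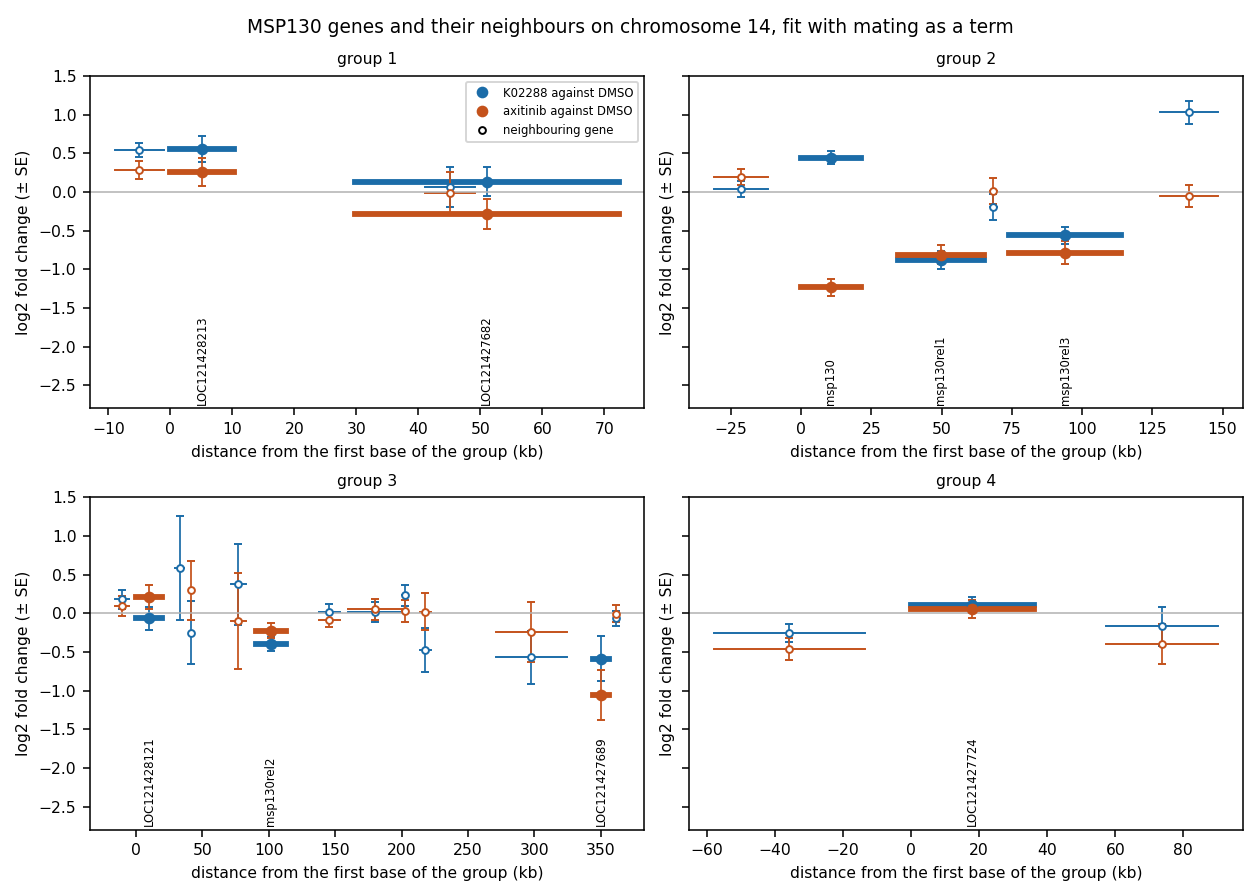
Log2 fold change with its SE (vertical axis, edgeR, mating in the fit) of the MSP130 genes (filled symbols, thick bars for the gene's extent) and of neighbouring genes (open symbols), against distance from the first base of each of the 4 groups in kb. In group 2 msp130 is above 0 with K02288 (0.45) and far below it with axitinib (-1.23), msp130rel1 and msp130rel3 are below 0 with both, and the pseudogene at the right end is above 0 with K02288 (1.03) but not with axitinib (-0.05).

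The members were then set beside 25 other genes for skeletal effector proteins of PMCs, among them spicule matrix proteins, C-type lectins, metalloproteases and bicarbonate transporters. In whole embryos, fewer PMCs and less RNA per PMC cannot be told apart. The summed level of the 25 genes was between 7266 and 8484 CPM with DMSO, between 5327 and 6307 with K02288 and between 4690 and 5507 with axitinib, and none of the 25 was at 0. With K02288, 7 of the 25 passed the unadjusted threshold as lower and 1 as higher, beside 1.23% and 1.22% of all genes (median -0.31, beside 0.01 over all genes). With axitinib 12 passed as lower, beside 3.07% of all genes, and none as higher (median -0.50, beside 0.01). When the fit included mating, 6 were lower and 1 higher with K02288 after adjustment, beside 1.05% and 1.83% of all genes, and 16 were lower with axitinib, beside 3.44%. The part of the lower summed effector level in the values of the MSP130 genes was not tested.

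The log2 change of each member from DMSO within a mating was set against the change of the summed CPM of these effectors. In matings 1, 2 and 3 that sum changed by -0.52, -0.20 and -0.55 with K02288 and by -0.64, -0.40 and -0.74 with axitinib. Relative to the change of the sum, msp130 was higher with K02288 in every mating, by 0.98, 0.55 and 0.95 on the log2 scale. With axitinib msp130 was lower on this relative scale, by 0.34, 1.23 and 0.41. msp130rel1 fell more than the sum with K02288 in each mating (-0.80, -0.47 and -0.21 relative to it). With axitinib msp130rel1 fell more than the sum in matings 1 and 2 and less in mating 3. The change of msp130rel2 stayed within 0.09 of that of the sum with K02288. With axitinib msp130rel2 was itself below DMSO in each mating, but fell less than the sum, by 0.30, 0.30 and 0.46.

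The effector that passed as higher with K02288 was clect14 (LOC121405990), a C-type lectin gene. It had a log2 fold change of 0.48 (SE 0.16) with K02288 and of -2.61 (SE 0.29, adjusted p = 0.0290, edgeR) with axitinib, and differed between the drugs by 3.10 (adjusted p = 0.01503, edgeR). msp130 had the same pair of signs. The spicule matrix gene sm30A (LOC121406020) was lower with both drugs (-0.47, SE 0.18, and -1.06, SE 0.24). The metalloprotease gene mtmmpb (LOC121409095) fell with K02288 (-0.94, SE 0.19) and did not pass with axitinib (-0.50, SE 0.25). mtmmpd (LOC121409094) fell with axitinib (-0.99, SE 0.15) and did not pass with K02288 (-0.40, SE 0.19). The lectin gene C-lectin (LOC121427330) was lower with both (-0.79 and -0.45), as were msp130rel1 and msp130rel3. p16 (LOC121416200), which encodes a small acidic PMC protein, fell with axitinib (-0.96, SE 0.19) and did not pass with K02288 (0.14, SE 0.23).

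**Figure D5:**
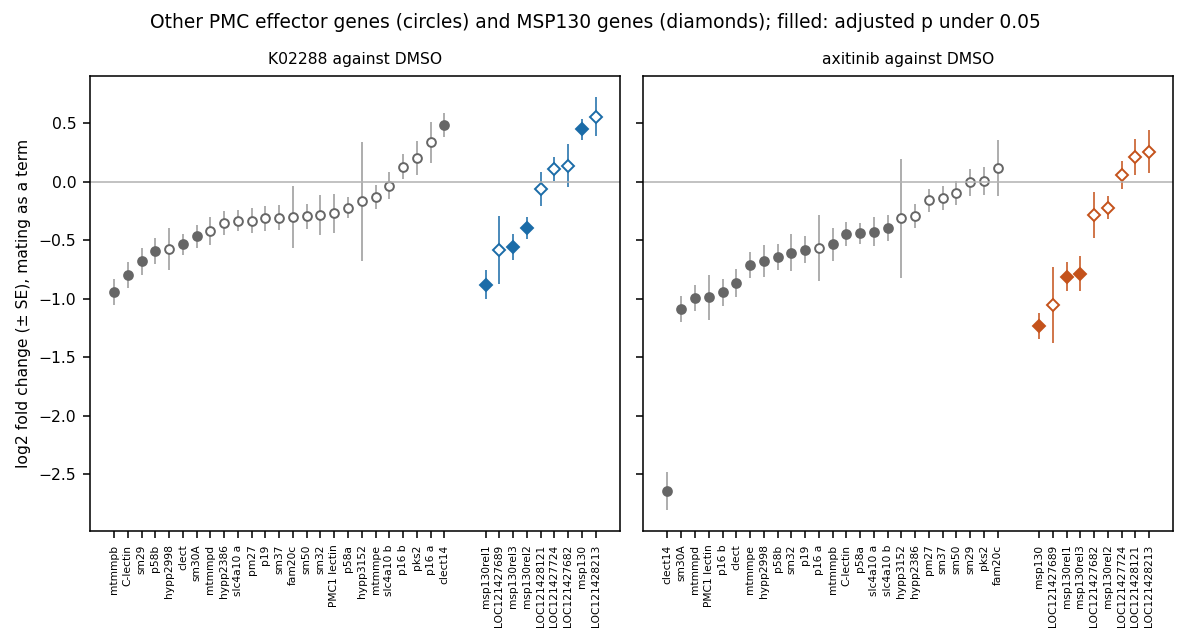
Log2 fold change with its SE (vertical axis, edgeR, mating in the fit) of 25 other PMC effector genes (circles) and the 9 MSP130 genes (diamonds), each sorted by value, with K02288 (left) and axitinib (right) against DMSO. Filled symbols have an adjusted p under 0.05. With K02288, clect14 (0.49) and msp130 (0.45) are the filled symbols above 0, and with axitinib clect14 (-2.64) and msp130 (-1.23) have the lowest values of the circles and of the diamonds.

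Of 10 skeletogenic regulators and receptors, none passed with K02288 in edgeR without the mating term, and 2 passed the unadjusted threshold with it, beside 13.2% of all genes. With axitinib and without that term, 3 were lower and 2 higher at the unadjusted threshold, beside 4.85% of all genes in either direction. The lower ones were vegfr10 (-1.12, SE 0.17), the VEGF receptor of PMCs, the transcription factor gene ets1 (-1.19) and the FGF receptor gene fgfr2 (-0.69), and the higher ones were the transcription factor genes alx1 (0.58) and erg (0.61). alx1 is required for PMC specification in sea urchins. With axitinib msp130 was lower and alx1 higher, the latter with an adjusted p of 0.846 in edgeR without the mating term and 0.0111 with it. A link between these genes was not tested.

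Markers of other cell types were summed in the same way. The summed level of 10 muscle genes was between 2874 and 3140 CPM with DMSO, 2968 and 3294 with K02288 and 2541 and 3070 with axitinib. That of 4 genes of motile cilia was between 1329 and 1696, 1297 and 1457, and 1509 and 1748 in the same order. The 20 synaptotagmin genes taken for neurons had between 582.1 and 630.2 CPM with DMSO and lower ranges with K02288 (517.5 to 556.9) and axitinib (514.6 to 574.5). For the gut, 45 genes were taken whose description names a chymotrypsin or a carboxypeptidase, and whether each is a digestive enzyme was not checked. They had between 2312 and 2672 CPM with DMSO, 2379 and 2598 with K02288 and 1922 and 2168 with axitinib, with 1 of the 45 at 0. The part of these differences in the MSP130 values was not tested.

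Matings differed for most members when a common difference was fitted over the treatments. Whether that difference was alike under each drug was not tested. In 1 edgeR fit over all 9 libraries with treatment as a covariate, 8 of 9 members had an adjusted p under 0.05 between matings, beside 52.7% of all 16866 genes. LOC121427724 stood apart most: its FPKM was 25.4, 29.5 and 22.0 in mating 1, between 9.47 and 11.5 in mating 2 and between 10.9 and 11.99 in mating 3, with no overlap of mating 1 with the rest. On the log2 scale mating 2 differed from mating 1 by -1.30 and mating 3 by -1.18 (adjusted p = 1.06e-07, edgeR). For msp130 the differences fitted in common over the treatments were 0.17 and -0.15 (adjusted p = 0.0347, edgeR). They averaged over unlike patterns. Mating 2 had the highest msp130 FPKM with DMSO (179.9) and with K02288 (240.4), but was below mating 1 with axitinib (60.7 against 70.3). LOC121427689 did not pass (adjusted p = 0.0592, edgeR). The number of members called was 5 when the DMSO library of mating 2, the K02288 library of mating 2 or 3, or the axitinib library of mating 3 was left out. In the same order, 8247 of 17251, 7879 of 17215, 7562 of 17210 and 8066 of 17300 genes were called in these fits.

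The genes whose log2 CPM over the 9 libraries followed that of msp130 most closely, among 16866 genes, were LOC121419050 (glycoprotein hormone beta-5-like, Pearson r = 0.977), LOC121431448 (neurexin-4-like, r = 0.974) and LOC121426221 (proto-oncogene Wnt-3-like, r = 0.968). Each is a description over 9 libraries that share 3 matings and 3 treatments, and carries no test. LOC121419050 had between 31.2 and 50.9 CPM with DMSO, between 58.5 and 98.2 with K02288 and between 14.5 and 17.5 with axitinib. LOC121426221 had between 60.0 and 76.5, between 72.8 and 93.3 and between 30.5 and 34.7 CPM in the same order.

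For msp130rel1 the closest genes were LOC121415504 (deleted in malignant brain tumors 1 protein-like, r = 0.959) and the uncharacterized LOC121407396 (r = 0.945) and LOC121408715 (r = 0.930). LOC121407396 had between 44.1 and 76.4 CPM with DMSO, and 14.7 to 20.9 and 14.03 to 21.9 with K02288 and axitinib. For msp130rel3 they were LOC121421513 (tetraspanin-18-like, r = 0.974), LOC121429009 (kinetochore-associated protein DSN1 homolog, r = 0.973) and LOC121416245 (tyrosine-protein kinase CSK-like, r = 0.964). LOC121421513 was between 646.0 and 674.2 CPM with DMSO, between 518.4 and 625.1 with K02288 and between 488.1 and 592.3 with axitinib. None of the 9 genes named here was a member of the family.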

How the data were processed

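Poly-A RNA of whole embryos was sequenced in strand-specific libraries. Reads were aligned by the authors with HISAT2, and the counting tool, its strand setting and its treatment of multi-mapping reads are not given in the sources used here. They deposited raw whole-number counts per gene. FPKM values for the same genes were also deposited, and were checked to be each count over gene length and over a single factor for each library. Neither file pools libraries. Columns with the authors' own comparisons were not used, and no value column lacked a sample.

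All 26814 genes matched the RefSeq table of Lvar_3.0 with the same start and end. Members were found by their description, and the names msp130, msp130rel1, msp130rel2 and msp130rel3 come from the published single-cell list. The members and gene lists were chosen with earlier results of these data known. Genes were named by rule: every member, the genes between or next to members, the 3 genes of highest Pearson r to each of msp130, msp130rel1 and msp130rel3 among genes tested over 9 libraries, and from each of the effector and regulator lists up to 6 genes with an adjusted p under 0.05 in the fit with mating.

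Each pair of treatments was compared on its 6 libraries with edgeR 4.0.16 in R 4.3.3, after filterByExpr and TMM scaling, with glmQLFit and glmQLFTest over the whole table. As in the study's methods, unadjusted p values set the main threshold, and Benjamini-Hochberg adjustment over every gene in the fit is given beside it. Limits for a gene at 0 are 3 counts per library and cover counting error only. The replicate number in the labels marks a separate mating in the study's methods. After removal of treatment means, log2 CPM of the 9 same-number pairs correlated across genes with r between 0.706 and 0.750 and of the 18 other pairs with r between -0.420 and -0.327, so the number pairs the libraries, and a fit with mating as a term (replicate block) stands beside the main one. The fit with mating lowered the biological coefficient of variation from 0.340 to 0.124 for K02288 and from 0.332 to 0.127 for axitinib.

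Alternatives were RLE normalization, no filter, a minimum of 10 counts in each library, a joint fit of the 9 libraries, DESeq2 1.42.0, limma-trend (limma 3.58.1) on log2(FPKM + 1) and log2(FPKM + 0.1), and leaving out each library. Adjusted p values in the fit with mating, and that fit without each library, were added after the data had been seen. Each fitting script was first tested on simulated counts whose changes were known. Figures were drawn with matplotlib 3.10.9. Promoter sequences of the members were not analysed here.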

Additional observations from a re-analysis of the deposited data

How the results depend on the processing

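With an adjusted p under 0.05 in place of the unadjusted threshold, the number of members called was 0 for K02288 against DMSO and 0 for axitinib against DMSO, where the unadjusted count was 4 in each. The unadjusted count for K02288 against DMSO was 3 with DESeq2, no filter, the minimum of 10 counts, the joint fit and both limma-trend fits. In these fits 186 to 219 of all genes passed as lower and 205 to 236 as higher, of 14543 to 22925 tested. For axitinib against DMSO the count stayed at 4 in the same fits. The replicate block raised the unadjusted count for K02288 against axitinib from 1 to 3, and gave 5 in each comparison with DMSO. Over the fits that left out 1 library without the block, the unadjusted counts ran from 1 to 3 for K02288 against DMSO and from 2 to 3 for axitinib against DMSO. The count was 1 in each such fit between the drugs. With the block the counts ran from 5 to 6, from 4 to 5 and from 2 to 4 in the same order, in fits where more of all genes passed. For K02288 against DMSO without K02288 replicate 1, 159 of 16872 genes were lower and 175 higher without the block. With it, 1031 were lower and 1239 higher. Over all genes tested, the block raised the unadjusted counts from 399 to 2144 for K02288, from 777 to 2859 for axitinib and from 808 to 3170 between the drugs. Between matings the count of 8 became 2 without a treatment term, beside 6548 of 16866 genes, and 5 to 8 without 1 library. The order of levels was set anew in each subset of libraries, so its pairs of neighbours can differ. The number of pairs in the same order in every library was 2 over all 9 libraries, 5 within DMSO, 5 within K02288, 4 within axitinib, and 4, 3 and 7 within matings 1, 2 and 3.

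msp130rel1 in both drug comparisons with DMSO and msp130 with axitinib and between the drugs kept their direction and passed the unadjusted threshold in every alternative fit run. The adjusted p of msp130 with axitinib ranged from 6.39e-08 with DESeq2 to 0.254 without axitinib replicate 3.

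Reversals of sign occurred in 35 of the comparisons of a setting with the reported value, all for members that had not passed the test. LOC121427724 with axitinib became 0.055 with the replicate block, 0.055 with limma-trend on log2(FPKM + 1) and 0.062 on log2(FPKM + 0.1). The other reversals came from leaving out 1 library. With or without the block, the ranges over these fits were -0.20 to 0.64 (LOC121427682), -0.24 to 0.18 (LOC121428121) and -0.54 to 0.72 (LOC121427724) with K02288. With axitinib they were -0.62 to 0.22 (LOC121427682) and -0.38 to 0.56 (LOC121427724). Between the drugs they were -0.19 to 0.047 (msp130rel1), -0.048 to 0.49 (msp130rel3), -0.41 to 0.0010 (LOC121428121) and -0.52 to 0.53 (LOC121427724). The cause was not tested. With 3 libraries per treatment, the exact permutation tests cannot give a p below 0.1.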
